A study of Mus musculus with 24 samples.

Results

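Fatty acid uptake and mitochondrial beta-oxidation were followed through experimental autoimmune myocarditis (EAM) as a set of 33 genes, matched by symbol to the Ensembl identifiers of the deposited count table, which lists 41388 mouse genes. All 33 were found, each at 1 identifier, and all 33 passed the filter on low counts at every time point. Part of each heart was sequenced from 24 wild type male Balb/c mice (substrain BALB/cAnNCrl), 8 to 10 weeks old when immunized, 4 EAM and 4 control at each time point, taken 10 (D10), 15 (D15) or 21 days (D21) after the first injection. EAM mice had received a peptide of the α-myosin heavy chain in supplemented complete Freund's adjuvant, given on 2 occasions, and pertussis toxin on the first occasion only. Control mice had received PBS in place of the peptide, with the same adjuvant and toxin, so adjuvant and toxin are shared by all 6 groups and no untreated heart is among them. The EAM hearts were picked for RNA from inflamed animals as far as possible, which could not be done at D10, where no EAM animal stood out in heart leucocytes by flow cytometry. Expression is given as CPM, each gene's counts relative to the TMM-adjusted size of its library, on 1 scale for all 24 hearts, as mean ± SD of 4 hearts. Effects are log2 fold changes of EAM over control, given ± SE.

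The heart burns mainly long-chain fatty acids. They cross the plasma membrane with the help of Cd36 and fatty acid transport proteins, are carried in the cytosol by Fabp3, and are activated to acyl-CoA. Carnitine palmitoyltransferase 1 at the outer mitochondrial membrane commits acyl groups to oxidation and is inhibited by malonyl-CoA. In the matrix, each turn of beta-oxidation passes through a dehydrogenase, a hydratase, a second dehydrogenase and a thiolase, and the electrons of the first step enter the respiratory chain through the electron transfer flavoproteins. Many of these genes are targets of the nuclear receptor PPARα, which works with RXR, and of the coactivator PGC-1α.

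Total counts per heart lay between 15814863 and 24980864. A count of 3 corresponded to between 0.105 and 0.201 CPM, and the lowest count of any of the 33 genes in any heart was 45 (Acot1). All 15 cardiomyocyte marker genes were at 107 CPM or more in every heart, as the labelled tissue would have them. The samples differed in atrial tissue: the summed level of 5 atrial marker genes was 94.9 to 248 CPM in D21 EAM hearts against 1821 to 2823 in D21 controls, and 624 to 2061 against 242 to 550.3 at D10. The 4 D21 EAM libraries also carry a library code of their own while the other 20 share one, so library code and EAM cannot be told apart at D21.

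In control hearts the set took 2.08 to 2.14% of all counts at D10, 1.92 to 1.98% at D15 and 1.80 to 1.86% at D21. Per length, over the 12 control hearts, Fabp3, the heart fatty acid binding protein, was highest at 1743 ± 190.1 in RPKM, that is CPM per kilobase of exon. Exon length here merges all GENCODE M21 transcripts of a gene, 8730 bases for Hadha and 8286 for Echs1. The order by RPKM therefore depends on that annotation. Acaa2, the thiolase of the last step, followed at 629.6 ± 55.0 RPKM, Acadl, the long-chain acyl-CoA dehydrogenase, at 586 ± 50.0, and Cd36 at 584 ± 61.8, and the SDs of these 3 levels overlapped. At the other end stood Ucp3 at 14.7 ± 6.44 RPKM, Cpt1a at 9.91 ± 1.09, Cpt1b at 4.71 ± 0.555 and the cytosolic thioesterase Acot1 at 4.39 ± 1.73. The low levels of Cpt1b and Acot1 are uncertain. GENCODE M21 places a second gene model, Gm44502, over 2744 exon bases of Cpt1b on the same strand, and whether reads there were left out of the Cpt1b count was not tested. Acot1 and its neighbour Acot2 have transcripts that are 94.3% identical over 1330 aligned bases, so reads may be split between them. Exons of Etfb share 617 bases with a second gene model, Gm45233, on the same strand. Whether reads there were left out of the Etfb count was not tested. Exons of Acadvl share 1151 bases with Dvl2 on the opposite strand and those of Acsl1 1039 bases with Gm45244, and no source used here gives the strand setting of the counting.

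At D15 the set was lower in EAM hearts almost as a block. By edgeR's quasi-likelihood test, 32 of the 33 genes were lower at a false discovery rate (FDR) under 0.01 and 1, Cpt1a, was higher, against 31.1% and 33.2% of the 15693 genes tested. With the limit of at least 2-fold added, 30 genes were called repressed and 0 induced, against 12.9% of all genes called repressed and 18.1% called induced, and Cd36, Eci2 and Acot1 lost their call when libraries were scaled by total counts. The median log2 fold change of the set was -1.49, and that of the other genes tested was 0.02. All 4 EAM hearts lay below all 4 controls for 32 of the 33 genes, as for 35.9% of all genes. In counts, the set took 0.580 to 1.17% of the library in D15 EAM hearts. In heart tissue, fewer cardiomyocytes and less RNA per cardiomyocyte cannot be told apart, and the cardiomyocyte markers moved with the set: 15 of 15 were lower at FDR under 0.01, with a median of -1.33, and their sum was 10510.2 to 20582 CPM in EAM hearts against 33686 to 37199.9 in controls. Of 10 leucocyte markers, 10 were higher, with a sum of 3801 to 5317 CPM against 497 to 561. Of 7 endothelial markers, from a cell type that also expresses Cd36, 7 were lower at FDR under 0.01, with a median of -0.70 and a sum of 766 to 839.6 CPM against 1117 to 1454. Of 7 fibroblast markers, 4 were higher at FDR under 0.01 and 0 lower, with a sum of 8376 to 17052 CPM against 2137 to 2668. Skeletal muscle markers summed to 1098 to 1707 CPM against 2064 to 2306, while of the 4 tested 1 was higher and 1 lower at FDR under 0.01. The part of these cell types in the D15 values of the set was not tested.

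**Figure D1:**
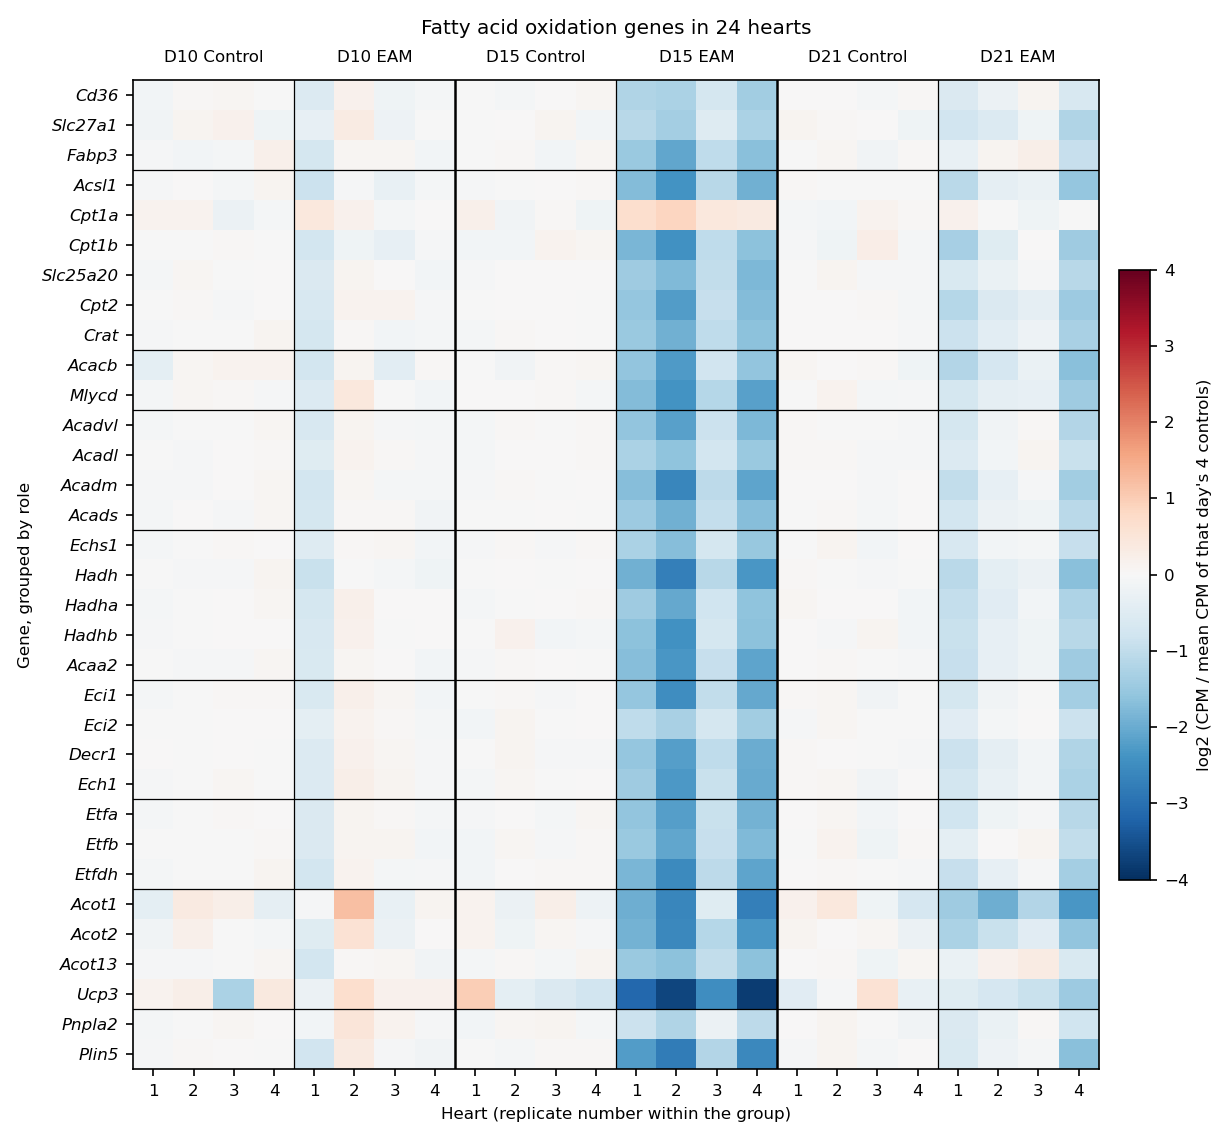
Each cell is the log2 ratio of 1 gene's TMM-normalized CPM in 1 heart to the mean of that day's 4 control hearts, with genes in rows by role and hearts in columns by group and replicate. The 4 D15 EAM hearts are below 0 in 32 of 33 rows, with Cpt1a the exception and replicate 2 darkest in most rows, while D10 EAM hearts differ among themselves. On a scale set by cardiomyocyte genes in place of TMM, 26 of the 33 D15 effects stay below 0.

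The 3 uptake genes had a median of -1.08, the smallest fall of the 9 roles, whose medians reached -1.73 for the thioesterases with Ucp3. Slc27a1, a fatty acid transport protein, was at 185, 186, 198 and 172 CPM in the 4 control hearts and 85.6, 72.8, 129 and 76.5 in the EAM hearts. Its groups did not overlap, but its log2 fold change of -0.99 ± 0.17 (FDR 0.000454) was just under the 2-fold limit. Cd36, the main fatty acid translocase of the myocyte membrane, went from 2069.6 ± 98.6 to 953 ± 214 CPM, a log2 fold change of -1.08 ± 0.16, and without EAM replicate 4 this was -0.98, under the 2-fold limit. Fabp3 was at 1469, 1522, 1378 and 1570.3 CPM in controls and 533, 352, 739 and 462 in EAM hearts, which left 36% of the control level (log2 -1.47 ± 0.20, FDR 0.000134). Replicate 2 was the lowest and replicate 3 the highest of the 4 EAM hearts for Fabp3.

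Activation and the carnitine shuttle held the single exception. Acsl1, the main long-chain acyl-CoA synthetase of heart, was at 1152, 1183, 1196 and 1220.3 CPM in controls and 359.7, 227, 551 and 317 in EAM hearts (log2 -1.67 ± 0.23, FDR 0.000146). Cpt1b, the muscle isoform of carnitine palmitoyltransferase 1, fell with a log2 fold change of -1.61 ± 0.25, Slc25a20, the carnitine-acylcarnitine translocase, with -1.41 ± 0.17, Cpt2 of the inner membrane with -1.49 ± 0.23, and Crat, carnitine acetyltransferase, with -1.43 ± 0.17. Cpt1a (ENSMUSG00000024900, chr19:3322334-3385733, plus strand) encodes the liver isoform, which is also made by many cell types other than muscle. It was at 83.1, 66.0, 75.3 and 64.3 CPM in controls and 114, 130.4, 97.3 and 92.1 in EAM hearts, so every EAM heart was above every control. Its log2 fold change was 0.63 ± 0.13 (FDR 0.00144), under the 2-fold limit. Cpt1b (ENSMUSG00000078937, chr15:89416405-89425863, minus strand) was at 13.5, 13.5, 16.1 and 15.3 CPM in controls and 4.08, 2.73, 7.22 and 4.63 in EAM hearts. Cpt1a took 93.1 to 97.9% of the counts of both genes together in EAM hearts and 80.8 to 86.0% in controls. These shares rest on a Cpt1b count that may be too low in every heart. The part that other cell types took in the rise of Cpt1a was not tested.

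**Figure D2:**
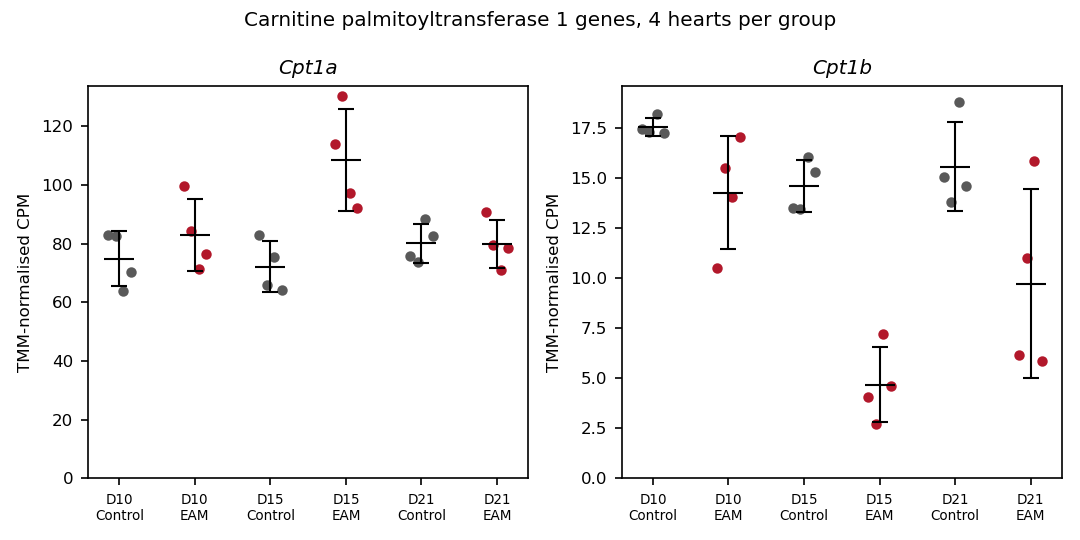
Points are TMM-normalized CPM of Cpt1a (left) and Cpt1b (right) in single hearts, with control hearts in grey, EAM hearts in red, and bars for mean ± SD of 4 hearts. At D15 all 4 EAM hearts are above the controls for Cpt1a and below them for Cpt1b, while at D21 the groups overlap for both genes.

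Both sides of malonyl-CoA control were lower. Mlycd, malonyl-CoA decarboxylase, was at 170.4, 168, 172 and 159 CPM in controls and 49.8, 32.2, 75.4 and 36.7 in EAM hearts (log2 -1.75 ± 0.23, FDR 0.000111). Acacb, the mitochondrial acetyl-CoA carboxylase that makes malonyl-CoA, was at 422, 385, 439 and 451 CPM in controls and 143, 87.9, 251 and 141 in EAM hearts (log2 -1.41 ± 0.26, FDR 0.000931). The enzyme that removes the inhibitor of carnitine palmitoyltransferase 1 and the enzyme that makes it were thus at 29.7% and 37.6% of the control level, and the difference between them was not tested.

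All 4 acyl-CoA dehydrogenases, which share out the first step by chain length, were called repressed. Acadm, for medium chains, was at 1200.5, 1261, 1210.5 and 1238 CPM in controls and 378, 202, 588 and 284 in EAM hearts (log2 -1.72 ± 0.28). Acadl, for long chains, was at 1109, 1175, 1177 and 1208 CPM in controls and 482, 384, 697 and 421 in EAM hearts (log2 -1.20 ± 0.18). Acadvl, for very long chains, had a log2 fold change of -1.49 ± 0.24 and Acads, for short chains, one of -1.43 ± 0.18. Acadm was the lowest of the 4 relative to control, at 30.4%, and Acadl the least changed, at 43.6%, and the difference between them was not tested.

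All 5 genes of the following steps were called repressed, with a median of -1.44. Hadh, the soluble hydroxyacyl-CoA dehydrogenase for shorter chains, was at 626, 637, 620.2 and 633 CPM in controls and 166, 94.3, 293 and 126 in EAM hearts (log2 -1.85 ± 0.30, FDR 0.000382). Echs1, the short-chain enoyl-CoA hydratase, was at 441, 465, 439.7 and 463 CPM in controls and 189.7, 139, 281 and 158 in EAM hearts (log2 -1.20 ± 0.19, FDR 0.000363). Hadha and Hadhb, the subunits of the membrane-bound trifunctional protein that lie head to head on chromosome 5, had log2 fold changes of -1.36 ± 0.23 and -1.44 ± 0.31. Acaa2 had -1.64 ± 0.27. Within this group the remaining level ran from 27.7% of control for Hadh to 43.5% for Echs1.

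Auxiliary enzymes that handle double bonds of unsaturated chains went the same way. Eci1, a mitochondrial enoyl-CoA isomerase, was at 290.4, 299.8, 280.1 and 293 CPM in controls and 98.7, 51.5, 146 and 69.7 in EAM hearts (log2 -1.63 ± 0.27). Eci2, the related isomerase shared by mitochondria and peroxisomes, was at 161, 185, 171 and 174 CPM in controls and 86.3, 69.8, 107 and 66.0 in EAM hearts (log2 -1.03 ± 0.14). Decr1, the dienoyl-CoA reductase, had -1.57 ± 0.23 and Ech1, the dienoyl-CoA isomerase, -1.52 ± 0.27. The call of Eci2 was close to the 2-fold limit: without control replicate 2, EAM replicate 2 or EAM replicate 4 its log2 fold change was -0.99, -0.93 and -0.91. The electron transfer flavoprotein subunits Etfa and Etfb and their dehydrogenase Etfdh, which passes the electrons to ubiquinone, were all called repressed. Etfdh was at 784, 862, 867 and 867 CPM in controls and 239, 144, 408 and 196 in EAM hearts (log2 -1.74 ± 0.28). Etfb was at 478, 544, 499 and 531 CPM in controls and 182, 121, 273 and 151 in EAM hearts (log2 -1.46 ± 0.22), and Etfa had a log2 fold change of -1.52 ± 0.24.

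The largest fall of the set was in Ucp3 (ENSMUSG00000032942, chr7:100472990-100486432, plus strand), a mitochondrial carrier of the uncoupling protein family found in striated muscle. It was at 89.4, 34.0, 30.2 and 26.2 CPM in controls and 5.08, 3.51, 8.10 and 3.20 in EAM hearts. Every EAM heart was below every control, although control replicate 1 was well above the other controls. Its log2 fold change was -3.15 ± 0.47 (FDR 0.000209), which left 11.3% of the control level. Without control replicate 1 the log2 fold change was -2.56. The thioesterases, which release free fatty acid from acyl-CoA, were lower too. Acot2 of the mitochondrial matrix had a log2 fold change of -1.84 ± 0.27. Acot13 was at 205, 225, 206 and 233 CPM in controls and 78.0, 69.5, 111 and 70.1 in EAM hearts (log2 -1.37 ± 0.15, FDR 2.76e-05). Acot1 (ENSMUSG00000072949, chr12:84009490-84018371, plus strand) was at 16.1, 12.5, 17.4 and 12.8 CPM in controls and 3.79, 2.42, 10.4 and 2.20 in EAM hearts (log2 -1.62 ± 0.45, FDR 0.00835), and its call was lost when any 1 of the 8 hearts but EAM replicate 3 was left out.

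Lipid droplet genes held both a large and the smallest fall. Plin5, a droplet coat protein that ties droplets to mitochondria, was at 154, 148, 161 and 163 CPM in controls and 33.6, 22.6, 69.1 and 26.3 in EAM hearts (log2 -2.01 ± 0.31, FDR 0.000283). Pnpla2, adipose triglyceride lipase, was at 436, 501, 515 and 445 CPM in controls and 263, 205, 399.8 and 232 in EAM hearts (log2 -0.75 ± 0.19, FDR 0.00539). The groups did not overlap for either gene, yet Plin5 kept 24.8% of the control level and Pnpla2 59.4%.

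The highest and the lowest of the 4 D15 EAM hearts were the same hearts in most genes. Replicate 3 was the highest EAM heart for 32 genes, and replicate 2 the lowest for 27. The median gene of the set was at log2 -1.54, -2.20, -0.94 and -1.77 relative to the mean of the day's controls in EAM replicates 1 to 4, and the median of the 15 cardiomyocyte markers at -1.40, -1.85, -0.78 and -1.49. The set was thus lower than the cardiomyocyte markers in 4 of 4 hearts, and hearts with lower markers had a lower set. When libraries were scaled to the 15 cardiomyocyte markers in place of TMM, 4 of the 33 genes were lower at FDR under 0.01, against 1.45% of all genes, and 1 was higher, against 72.7%. The 4 were Ucp3 (-1.92, FDR 0.00024), Plin5 (-0.81, FDR 0.00194), Hadh (-0.65, FDR 0.00392) and Etfdh (-0.53, FDR 0.00903), and only Ucp3 was still past 2-fold. Cpt1a was at 2.02 on this scale (FDR 1.38e-05). Besides Cpt1a, 6 genes had a log2 fold change above 0, namely Cd36, Slc27a1, Acadl, Echs1, Eci2 and Pnpla2, from 0.06 to 0.51, none of them past FDR 0.01. This scaling moves every gene: it called 10073 genes higher and 123 lower at D15 in place of 2838 and 2019, and the median of all genes went from 0.02 to 1.37. At D10 and D21 it moved that median to 0.31 and 0.43. Relative to the median of all genes, the median of the set was -1.5 with TMM, -1.51 with total counts and -1.63 with the cardiomyocyte scaling. A scaling shifts all genes by a similar amount, so this distance was nearly fixed in advance. It cannot show whether the fall of the set outlasts a scaling.

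**Figure D3:**
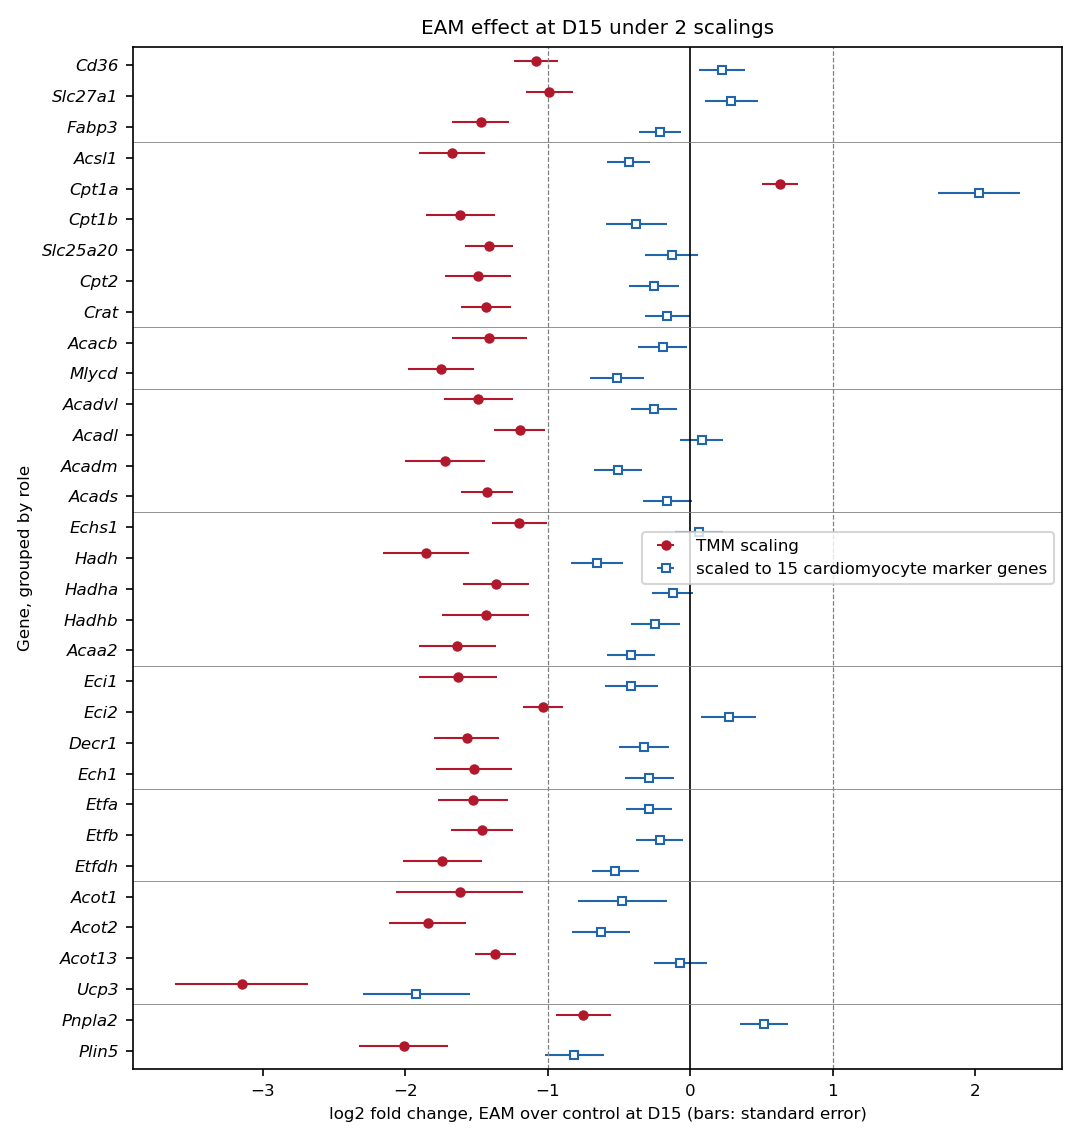
Horizontal position is the log2 fold change of EAM over control at D15 with its standard error, for each gene in rows by role, with filled circles for TMM scaling and open squares for scaling to 15 cardiomyocyte marker genes. With TMM, 32 of 33 genes are left of 0 and Ucp3 is farthest, while on the cardiomyocyte scale 7 genes are right of 0 and Ucp3 alone is past the dashed 2-fold line on the left.

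At D10 none of the 33 genes passed the test, by edgeR, DESeq2 or limma-voom, and 0 had an unadjusted p under 0.05 by edgeR's quasi-likelihood test. Of all genes, 0.0% were called repressed and 5.54% were lower at an unadjusted p under 0.05. The log2 fold changes ran from -0.31 for Cpt1b to 0.34 for Acot1, with a median of -0.11, and 28 of 33 were below 0, against 2 with the cardiomyocyte scaling. Of the 33, Cpt1b alone had all 4 EAM hearts below all 4 controls, with 10.5, 15.5, 14 and 17.1 CPM against 17.4, 17.3, 18.2 and 17.3, and 3.75% of all genes did so. The EAM hearts did not move together. In EAM replicates 1 to 4, 30, 1, 10 and 20 genes were below all 4 controls, and 1, 24, 9 and 0 were above all 4. The share of all genes is not given for single hearts, so whether these counts are particular to the set was not tested. Fabp3 was at 946, 1646, 1617 and 1416 CPM in the EAM hearts and 1504, 1439, 1471 and 1759.6 in controls. The summed leucocyte markers of the same 4 EAM hearts were 3293, 793, 1552 and 983 CPM, and the summed cardiomyocyte markers 20712, 32911, 31726 and 34196 CPM. Replicate 1, with the lowest fatty acid genes, thus also had the most leucocyte and least cardiomyocyte RNA. Replicate 4, with 20 genes below all controls, had both sums within those of the D10 controls, 528 to 1146 and 33727 to 39413 CPM. Without replicate 1 the median of the set was 0.03.

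At D21, 1 gene, Acot1, was called repressed, against 1.16% of all genes. At FDR under 0.01 alone the count was also 1, against 3.1%. At an unadjusted p under 0.05, 18 of the 33 were lower and 0 higher, against 21.2% and 25.2% of all genes. Acot1 was at 14.1, 17.0, 11.3 and 7.94 CPM in controls and 4.73, 3.27, 5.62 and 2.48 in EAM hearts (log2 -1.63 ± 0.30, FDR 0.00848). No EAM heart overlapped a control, but the call was lost with limma-voom and when any 1 heart other than EAM replicate 3 was left out. The closest other genes were Acot2 (log2 -0.97 ± 0.21, FDR 0.0133), Cpt2 (-0.81 ± 0.21, FDR 0.0215) and Slc27a1 (-0.61 ± 0.18, FDR 0.035). The median of the set was -0.56, 32 of the 33 fold changes were below 0, and for 16 genes all 4 EAM hearts lay below all 4 controls, as for 18.7% of all genes.

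The D21 EAM hearts differed widely among themselves. Replicate 4 was the lowest for 32 genes and replicate 3 the highest for 31. Fabp3 was at 1032, 1370.0, 1483 and 673 CPM in the EAM hearts against 1260.2, 1352, 1154 and 1330.1 in controls, and Acot13 155, 211, 232 and 122 against 189.6, 195, 167 and 197. For both genes EAM replicates 2 and 3 were above all 4 controls. The median gene of the set was at log2 -0.74, -0.31, -0.11 and -1.24 relative to the controls in replicates 1 to 4, and the cardiomyocyte markers at -0.46, 0.02, 0.24 and -0.94. As at D15, the set was below the markers in 4 of 4 hearts, while leucocyte markers summed to 4472, 2300.3, 1315 and 4197 CPM, against 433 to 706 in D21 controls. Without EAM replicate 3, 4 genes (Acot1, Acot2, Cpt1b and Acacb) were called repressed, against 3.5% of all genes in the same fit, and 8 were lower at FDR under 0.01, against 10.4%. With all 12 control hearts in place of the 4 of the day, 28 genes were lower at FDR under 0.01, against 18.2% of all genes in that fit, and 2, Acot1 and Acot2, were also past 2-fold, against 2.26%. With the cardiomyocyte scaling 0 passed the test and 25 of the 33 fold changes were below 0, while all-gene calls went from 630 higher and 177 lower to 3 and 26.

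**Figure D4:**
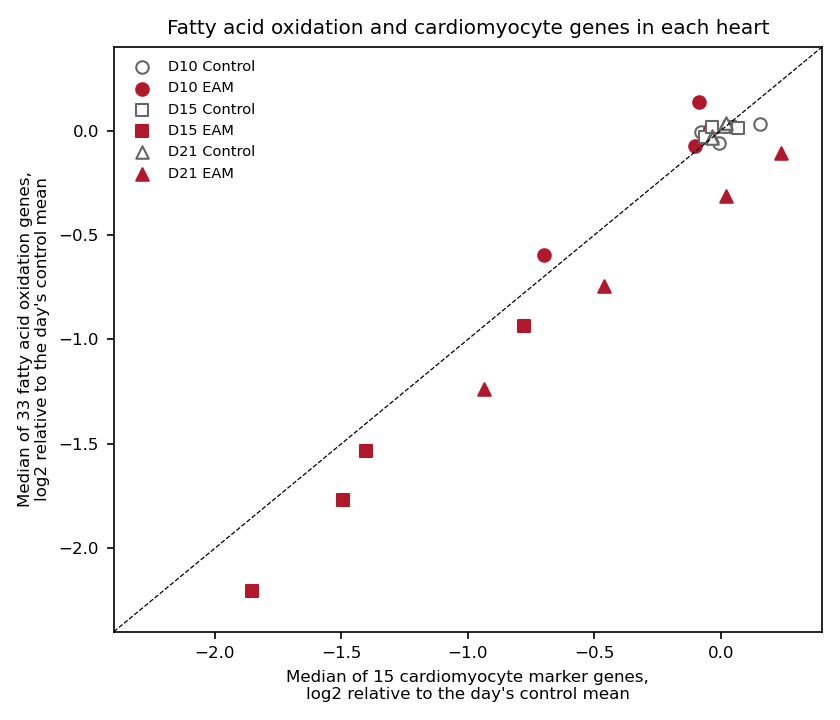
Each point is 1 heart, with the median of 15 cardiomyocyte marker genes on the horizontal axis and the median of the 33 fatty acid oxidation genes on the vertical axis, both as log2 of TMM-normalized CPM relative to the mean of that day's controls, and a dashed line where both are equal. All 4 D15 and all 4 D21 EAM hearts lie below the line, from -0.11 to -2.20 on the vertical axis, and D10 EAM replicate 1 at -0.59 stands apart from the other D10 EAM hearts.

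Atrial markers also differed among the control hearts. At D15, control replicate 4 had 276 CPM of atrial markers and the other 3 controls 1916 to 2525, while the mean log2(CPM + 1) of the set was 8.47 in replicate 4 and 8.48 to 8.49 in the others. Between days, D10 controls had 242 to 550.3 CPM of atrial markers and a set mean of 8.61 to 8.71. D21 controls had 1821 to 2823 CPM and 8.34 to 8.44, with no overlap in either. Day and atrial RNA cannot be told apart in this comparison. Within D10, control replicate 1 had the most atrial RNA and the lowest set mean. Within D21, control replicate 2 had the most atrial RNA and the highest set mean, and replicate 4 the least of both. Markers of adipocytes, which also express Cd36 and Pnpla2, summed to 13.3 to 29.5 CPM in D21 EAM hearts and 36.2 to 83.9 in D21 controls. Endothelial markers summed to 798 to 1294 CPM in D21 EAM hearts and 1329 to 1588 in D21 controls, and fibroblast markers to 5017 to 15110.3 and 2451 to 3063, again with no overlap. Skeletal muscle markers summed to 2558 to 3547 CPM in D21 EAM hearts and 1533 to 2258.5 in D21 controls, although 0 of the 4 tested were called. The part of these tissues and cell types in the D21 values of the set was not tested.

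Tested in a fit of all 24 hearts, the EAM effect on the set was more negative at D15 than at D10. The difference was past FDR 0.01 and 2-fold for 28 of the 33 genes, against 7.35% of all genes, with a median of -1.40, and 31 genes passed the FDR alone, against 16.7%. Ucp3 led with -3.41 ± 0.57 (FDR 0.00171), followed by Acot1 (-2.01 ± 0.58), Plin5 (-1.95 ± 0.43) and Acot2 (-1.90 ± 0.37). Acacb was at -1.24 ± 0.39 (FDR 0.0139) and Cpt1a at 0.44 ± 0.18 (FDR 0.0458), and neither passed. With the cardiomyocyte scaling 13 of the 33 genes were still lower at FDR under 0.01, against 0.87% of all genes, among them Plin5 (-0.97, FDR 0.00596), Acot2 (-0.91, FDR 0.00606) and Hadh (-0.66, FDR 0.00624). On this scale 30.9% of all genes were higher at FDR under 0.01. With the 2-fold limit added, Ucp3 was past both limits downwards (-2.43) and Cpt1a upwards (1.53), against 0.38% and 29.0% of all genes, and the median of the set was -0.39.

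From D15 to D21 the effect moved back towards 0 in 32 of the 33 genes by size, and the difference passed both limits for 4, against 2.74% of all genes. These were Ucp3 (2.35 ± 0.57, FDR 0.00573), Acot13 (1.35 ± 0.26, FDR 0.00183), Fabp3 (1.35 ± 0.31, FDR 0.00429) and Etfb (1.24 ± 0.31, FDR 0.00643). Slc25a20 passed the FDR alone (0.99 ± 0.26, FDR 0.00968), and 28 genes had an unadjusted p under 0.05 in this direction, against 23.4% of all genes. The median difference was 0.99. The cardiomyocyte markers moved with it, with a median difference of 1.07 and 8 of 15 past both limits upwards, while the atrial markers had a median difference of -5.72 and 3 of 5 past both limits downwards. This comparison uses the D21 EAM libraries with their own library code, which cannot be told apart from it, and the part of the marker values was not tested. Acot1 did not move back: its effect was -1.62 at D15 and -1.63 at D21, with a difference of 0.00 ± 0.73. Ucp3 in EAM hearts went from 5.08, 3.51, 8.10 and 3.20 CPM at D15 to 33.3, 28.8, 25.1 and 16.8 at D21, still below the D21 controls at 33.9, 44.3, 69.1 and 37.5. The count of 4 moved with single libraries. It was 23 without D15 EAM replicate 3, against 5.8% of all genes in the same fit, and 20 without D21 EAM replicate 4, against 6.87%. It was 2 without D15 EAM replicate 1 or 2 (1.63% and 1.3% of all genes) and without D21 control replicate 1, 3 or 4 (1.58%, 1.33% and 1.84%). It was 1 without D15 EAM replicate 4 (1.26%) and without D21 EAM replicate 2 or 3 (1.0% and 0.981%). With the cardiomyocyte scaling it was 0 and the median 0.03.

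**Figure D5:**
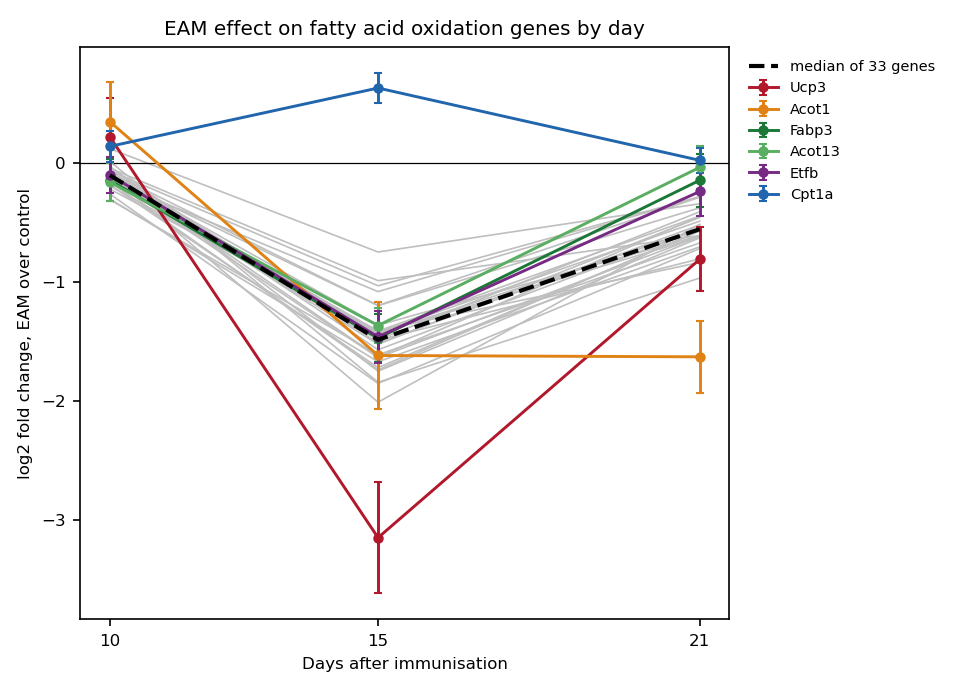
Lines give the log2 fold change of EAM over control for each of the 33 genes at 10, 15 and 21 days, with 6 genes in colour with standard errors, the others in grey, and their median dashed. The median goes from -0.11 to -1.49 and -0.56, Ucp3 has the deepest and Cpt1a the only positive value at D15 with TMM scaling, and Acot1 stays at -1.63 at D21.

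Control hearts were compared over time in the same fit. Of the 33 genes, 0 passed the test between D10 and D15, D10 and D21, or D15 and D21, while 0.0858%, 0.0919% and 0.0% of all genes were called lower. By limma-voom and edgeR's likelihood ratio test the counts were also 0. At an unadjusted p under 0.05 by the quasi-likelihood test 0, 1 and 0 genes of the set were lower and 0 higher. Of the 16285 other genes tested, 528, 763 and 119 were lower at that limit and 563, 1227 and 268 higher. Among those other genes, 1, 20 and 0 were called higher. The median of the set was -0.16 from D10 to D15 and -0.26 from D10 to D21 on the log2 scale. The atrial markers were above 0 in 5 of 5 over the same intervals, with medians of 2.18 and 2.65 (0 and 1 called), and the adipocyte markers had medians of 1.44 and 1.15 (0 called in both). Of 10 leucocyte markers, 10 and 9 were below 0, with medians of -0.68 and -0.55 (0 called in both). Their part in the control values of the set was not tested. Acot1 had the largest difference from D10 to D21, -0.95 ± 0.40 (FDR 0.323), with 18.6, 31.3, 28.4 and 18.8 CPM at D10 and 14.1, 17.0, 11.3 and 7.94 at D21.

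Genes around the pathway were read from lists, whose counts at D15 stand against 12.9% of all genes called repressed and 18.1% called induced. Of 31 genes of fatty acid uptake, activation and ketone metabolism, 17 were called repressed and 4 induced, so that the induced share was below that of all genes. Acsl6, an acyl-CoA synthetase, had a log2 fold change of -1.99 ± 0.23, Bdh1, the ketone body enzyme that oxidizes hydroxybutyrate, -1.88 ± 0.17, and Pdk4, the kinase that shuts off pyruvate dehydrogenase when fat is burned, -1.86 ± 0.44 (FDR 0.00351). Those higher were led by Angptl4, an inhibitor of lipoprotein lipase, at 3.18 ± 0.29, Ucp2, the relative of Ucp3 that leucocytes also make, at 2.44 ± 0.14, and the synthetase Acsl5 at 1.65 ± 0.08. Ucp2 was at 121, 140.4, 157 and 117 CPM in controls and 777, 769, 561 and 708 in EAM hearts, while Ucp3 fell in the same hearts. Of 19 genes of peroxisomal beta-oxidation, 5 were called repressed and 0 induced, with a median of -0.58. They were led by Ehhadh, the bifunctional enzyme, at -1.55 ± 0.18, Amacr, a racemase for branched chains, at -1.52 ± 0.16, and Phyh, which starts the breakdown of phytanic acid, at -1.38 ± 0.21. On the cardiomyocyte scale 10 of these 19 were higher at FDR under 0.01 and 0 lower, a smaller share than the 72.7% of all genes that were higher on it.

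Of 13 genes of triglyceride storage and lipid droplets, 6 were called repressed and 2 induced, the latter close to the share of all genes. Fitm1 and Fitm2, which help droplets to bud, had log2 fold changes of -1.79 ± 0.34 and -1.72 ± 0.22, and Dgat2, which makes triglyceride, -1.67 ± 0.35. The 2 induced genes were Plin2 (1.67 ± 0.22), a droplet coat protein made by many cell types, and Hilpda (1.5 ± 0.20), an inhibitor of Pnpla2. Plin2 rose as Plin5 fell. Of 7 lipogenesis genes 0 were called repressed and 2 induced, Scd2 (1.51 ± 0.12), a desaturase, and Acly (1.32 ± 0.06), which makes cytosolic acetyl-CoA. Of 13 transcriptional regulators 8 were called repressed and 0 induced. Ppara, which encodes PPARα, was at 62.1, 76.1, 76.8 and 77.5 CPM in controls and 15.6, 10.6, 28.1 and 14.2 in EAM hearts (log2 -2.06 ± 0.26, FDR 7.34e-05). Rxrg had -2.03 ± 0.20 and Perm1, a muscle regulator of oxidative genes, -1.99 ± 0.27. On the cardiomyocyte scale the 13 regulators had a median of 0.15, with 3 lower and 3 higher at FDR under 0.01, and Ppara, Rxrg and Perm1 were at -0.83, -0.78 and -0.77. On that scale the uptake, activation and ketone list had a median of 0.19, with 3 lower and 11 higher, the lipid droplet list 0.61, with 0 lower and 5 higher, and the lipogenesis list 1.97, with 0 lower and 7 higher, while the median of all genes was 1.37. At D21, Pdk4 (-1.48, FDR 0.00696) and the desaturase Scd1 (-2.20, FDR 0.00644) were called repressed. They were 1 of the 31 uptake, activation and ketone genes and 1 of the 7 lipogenesis genes, against 1.16% of all genes. Adipocyte markers had a median of -3.62 in the same comparison, whose EAM libraries carry their own library code. The part of either in these calls was not tested.

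Since the set moved together, its promoter windows were searched for the direct repeat AGGTCANAGGTCA, the element that PPAR-RXR pairs are known to bind, on both strands and with up to 2 mismatches. RefSeq windows of 250 bases before to 50 after the RefSeq start on GRCm38.p6 were matched for 28 of the 33 genes, in 32 windows. A match stood in 5 of the 32 windows (15.6%), and in 3.86% of 32851 windows of all genes. The element of the estrogen-related receptors, TCAAGGTCA, was in 0 of the 32 and in 0.423% of all, and the hexamer AGGTCA, which overlaps both, in 28.1% and 16.3%. The 5 matches are shown on the motif's strand, with letters shared with the motif in capitals. They lie at chr5:17835947-17835959 (plus strand) for Cd36, chr7:100472940-100472952 (plus strand) for Ucp3, chr7:140116492-140116504 (minus strand) for Echs1, chr9:55512308-55512320 (plus strand) for Etfa and chr9:108662142-108662154 (plus strand) for Slc25a20.
Cd36: AaGTCAgAGGcCA
Ucp3: AGGTttcAGGTCA
Echs1: AGGTCAcgGGTCc
Etfa: AGGgCAaAGGTaA
Slc25a20: AGGTgAaAGGTCg

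The genes with the deepest fall and with the rise at D15 are shown side by side upstream of their RefSeq starts, with matches to the direct repeat or the hexamer in capitals. For Ucp3 the stretch is the 150 bases before the start, chr7:100472841-100472990, and for Cpt1a the 100 bases from position -150 to -51, chr19:3323151-3323250, both on the plus strand. The Ensembl gene models of Cpt1a and Cd36 begin farther upstream, so the Cpt1a stretch and the Cd36 match lie inside those models.
Ucp3: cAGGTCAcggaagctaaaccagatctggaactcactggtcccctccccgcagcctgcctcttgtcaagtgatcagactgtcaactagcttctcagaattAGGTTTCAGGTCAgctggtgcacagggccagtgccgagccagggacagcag
Cpt1a: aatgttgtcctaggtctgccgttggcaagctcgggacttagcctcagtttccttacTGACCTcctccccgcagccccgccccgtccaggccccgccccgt
The Ucp3 stretch holds the hexamer and a direct repeat with 2 mismatches that ends in it again, and the Cpt1a stretch the hexamer once on the opposite strand and no direct repeat. Of the 5 genes with a match, Ucp3 had a D15 log2 fold change of -3.15, Etfa -1.52, Slc25a20 -1.41, Echs1 -1.20 and Cd36 -1.08, against a median of -1.49 for the set. A match describes these letters only.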

How the data were processed

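RNA from 24 mouse hearts, 4 in each of 6 groups, was read as paired-end libraries made with a directional kit. Per the labels and the study's methods, the authors aligned reads to GRCm38 with HISAT2 2.0.4, removed duplicates with Picard and counted reads per Ensembl gene with featureCounts. The deposited values are raw counts of reads per gene, with 15814863 to 24980864 counts per heart (median 19469782.5). Spike-in features held 0 reads and were left out.

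Each day's 8 hearts were fitted with edgeR 4.0.16 (R 4.3.3, TMM, quasi-likelihood test) over all genes that reached 10 reads in 4 or more hearts, and P values were adjusted by Benjamini-Hochberg over all genes. A gene was called at FDR under 0.01 and at least 2-fold. Differences between days and control hearts over time came from 1 fit of all 24 hearts. SEs were taken from the fold change and its F value. The fits were also run on simulated data, with outcomes not given here. DESeq2 1.42.0, limma-voom 3.58.1, edgeR's likelihood ratio test, other scalings, filters and control sets, and leaving out each heart were alternatives. Replicates are separate hearts. A count of 3 was taken as the floor, and floors cover counting error only. Gene positions came from GENCODE M21 and promoter windows from RefSeq.

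The 33 genes and all lists were chosen with earlier results of these data known. All 33 are named; values per heart are given for the largest and smallest D15 fold change in each of 9 roles, for genes called at D10 or D21 and for genes against the main direction, with other hearts shown where a result turned on them, and at most 3 genes per direction for each related list.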

Additional observations from a re-analysis of the deposited data

Results flagged for a closer look

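Single hearts stood apart from the other 3 of their group in 6 of 222 groups of values, by the ratio of the gap to the nearest heart over the whole range. Chance flags about 1 in 20 groups. For Ucp3 at D15, control replicate 1 had 89.4 CPM and the other controls 26.2 to 34.0 (ratio 0.877). The other cases were Acacb in D10 control replicate 1 (380.0 against 524 to 551 CPM, 0.841), Hadh in D10 control replicate 4 (764 against 679 to 693 CPM, 0.838), Decr1 in D15 control replicate 2 (464 against 424 to 427 CPM, 0.924) and Etfdh in D15 control replicate 1 (784 against 862 to 867 CPM, 0.936). The mean log2(CPM + 1) of the leucocyte markers was 7.55 in replicate 3 of the D15 EAM group, whose other members were between 7.92 and 7.98 (0.864), and this heart was also the highest EAM heart for 32 of the 33 genes.

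The EAM effect differed between days in the test of the difference itself. From D10 to D15 the log2 differences of the 28 genes past FDR 0.01 and 2-fold were Fabp3 -1.38, Acsl1 -1.42, Cpt1b -1.35, Slc25a20 -1.33, Cpt2 -1.46, Crat -1.29, Mlycd -1.77, Acadvl -1.38, Acadl -1.17, Acadm -1.58, Acads -1.31, Echs1 -1.13, Hadh -1.64, Hadha -1.32, Hadhb -1.4, Acaa2 -1.55, Eci1 -1.59, Eci2 -1.01, Decr1 -1.55, Ech1 -1.52, Etfa -1.46, Etfb -1.41, Etfdh -1.63, Acot1 -2.01, Acot2 -1.9, Acot13 -1.25, Ucp3 -3.41 and Plin5 -1.95. From D15 to D21 they were Fabp3 1.35, Etfb 1.24, Acot13 1.35 and Ucp3 2.35.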

How the results depend on the processing

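Of the counts and medians of the set, the D10 counts, the D15 counts and median under the other tools, filters, control sets and left-out hearts, and the control comparisons stayed within 1.5 times of their value, while the D10 median of -0.11 was 0.03 with all 12 controls and 0.17 with the cardiomyocyte scaling. Scaling to cardiomyocyte genes at D15 left 1 gene repressed, 1 induced, 4 lower at FDR under 0.01 and a median of -0.25, and turned Cd36 (0.22), Acadl (0.078), Echs1 (0.060) and Eci2 (0.27), called with TMM, and Slc27a1 (0.29) and Pnpla2 (0.51), past the FDR alone with TMM. With it, the effect fell from D10 to D15 past FDR 0.01 and 2-fold in 1 gene (13 at FDR under 0.01 alone) and rose in 1, with a median of -0.39, and from D15 to D21 it rose in 0, with a median of 0.033; the D21 counts repressed and lower at FDR under 0.01 were 0 and 0. The D21 count repressed was also 0 with limma-voom and 2 with all 12 controls, and that at FDR under 0.01 was 0 with limma-voom, 4 with DESeq2 and with the likelihood ratio test, 28 with all 12 controls and 3 in the fit of 24 hearts. Leaving out single hearts gave 0 to 4 and 0 to 8 at D21, and 1 to 23 genes whose effect rose from D15 to D21 (11 with the likelihood ratio test). Medians without single hearts ran from -0.21 to 0.03 at D10, -1.76 to -1.29 at D15 and -0.71 to -0.38 at D21. With the replicate number as a block, 2 genes, Acot1 and Acot2, were repressed and 2 lower at FDR under 0.01 at D21. Same-numbered hearts deviated with correlations of -0.0827 to 0.368 at D10, -0.0955 to 0.0351 at D15 and 0.0966 to 0.303 at D21. The D21 correlations were all above 0, so they do not settle whether hearts were paired there. The labels name no pairs, and the numbers were not taken as pairs. The share of all genes is not given for DESeq2, the likelihood ratio test, the fit of 24 hearts, the replicate block and some fits without single hearts. Counts from those fits are therefore not read as results about the set. Where a value changed, the cause was not tested.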

Other observations

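The control heart with high Ucp3 at D15 was also the highest D15 control for Pdk4, the pyruvate dehydrogenase kinase. Pdk4 was at 1422, 497, 807 and 707 CPM in D15 control replicates 1 to 4 and Ucp3 at 89.4, 34.0, 30.2 and 26.2 CPM. This pair was chosen after the values were seen, and no test was run on it.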
